A study of Rattus norvegicus with 7 samples.

Results

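The mir-29 family was followed in the retina of the Wistar rat during its first 3 postnatal weeks. Small RNA from the retinas of untreated Wistar WU rats was read by Ion Torrent PGM sequencing. The 7 ages were postnatal Day 1 (P1), P3, P5 and P7, followed by P10, P15 and finally P21, where the day of birth is P0. The RNA of 3 retinas was pooled at each age, so there was 1 library value per age, the spread between animals is unknown and no test between ages was possible. The members were chosen by the name of the miRNA gene, and the family was picked with its levels in these libraries already known, so its pattern over the ages is a description. Of 5491 deposited features, 571 were annotated as miRNA, and 3 of these belonged to the family, namely Mir29b1, Mir29b2 and rno-mir-29b-2.

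MicroRNAs are short RNAs that guide a silencing complex to messenger RNAs, mainly through the seed, the bases 2 to 8 from their 5′ end. The mir-29 family consists of miR-29a, miR-29b and miR-29c, which share 1 seed and are encoded in a pair of genomic clusters. Known targets are the DNA methyltransferases DNMT3A and DNMT3B, collagens, elastin and other genes of the extracellular matrix, and pro-apoptotic BH3-only genes, and miR-29 is known to become abundant as neurons mature.

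The mature sequences show what the members share. In RefSeq (GRCr8), the seed AGCACCA occurred in 4 of 724 rat mature miRNA entries, and these came from Mir29a, Mir29b1, Mir29b2 and Mir29c. They hold 3 distinct sequences, written 5′ to 3′ with the seed in capitals.
rno-miR-29b-3p: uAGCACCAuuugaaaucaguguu
rno-miR-29a-3p: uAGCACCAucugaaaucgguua
rno-miR-29c-3p: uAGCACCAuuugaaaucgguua
Over the first 22 bases, miR-29b-3p differs from miR-29a-3p at 4 bases and from miR-29c-3p at 3, and miR-29a-3p differs from miR-29c-3p only at base 10. All 3 members found in the deposited values are loci of miR-29b. Mir29a and Mir29c were not among the miRNA symbols that the rule found, so levels under these names were not analysed here.

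Mir29b1 and Mir29b2 give the same mature miR-29b-3p from different hairpins, which are shown because a read of the mature form cannot tell the loci apart. The capitals mark the mature sequence, with Mir29b1 on the reverse strand of chromosome 4 and Mir29b2 on the forward strand of chromosome 13.
Mir29b1: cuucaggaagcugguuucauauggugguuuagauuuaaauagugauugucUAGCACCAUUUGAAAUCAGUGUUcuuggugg
Mir29b2: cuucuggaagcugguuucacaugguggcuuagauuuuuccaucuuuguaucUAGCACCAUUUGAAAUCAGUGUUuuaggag
Both hairpins are 81 bases long in RefSeq, with the mature sequence at bases 51 to 73 of Mir29b1 and at bases 52 to 74 of Mir29b2. Compared base by base without gaps, 45 of 81 positions were identical (55.6%). The shared mature sequence starts at a different base in each hairpin, so this comparison sets it out of register. The share is therefore no measure of how alike the hairpins are when aligned with gaps.

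In the deposited annotation (Rnor_6.0), Mir29b1 (ENSRNOG00000035463.1) spans bases 58344310 to 58344390 of chromosome 4 on the reverse strand. Mir29b2 (ENSRNOG00000035637.2) spans bases 113782057 to 113782140 of chromosome 13 on the forward strand. The third locus, rno-mir-29b-2 (ENSRNOG00000049256.1), spans bases 38238376 to 38238459 of chromosome 1, also on the forward strand, and has the same annotated length of 84 bases as Mir29b2. RefSeq matched all 3 names to 2 genes, because it holds rno-mir-29b-2 as another name of Mir29b2. In RefSeq, Mir29b2 lies within the long noncoding RNA gene LOC102550527, as does Mir29c, and Mir29b1 overlaps Mir3587 on the opposite strand.

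The levels are FPKM, that is mapped fragments scaled by the length of the feature and by the size of the library, as the authors calculated them. Low values were whole multiples of what 1 alignment was worth, so the alignments behind a member could be recovered as whole numbers from P1 to P15 and estimated at P21. A member rested on 28 to 211 alignments from P1 to P15 and on an estimated 4172 to 4434 at P21. The 95% counting intervals below come from these numbers. They measure the error of counting alone, without the spread between animals, and PCR copies of a molecule were counted as if independent. The libraries held an estimated 178138 to 984236 alignments to miRNAs, and miRNAs took 40.6% of all estimated alignments at P3 and 60.9% to 76.3% at the other ages.

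The summed level of the 3 loci was low in the first postnatal week and highest at P21. It was 12638 FPKM at P1, then 9464, 15861 and 11808 at P3, P5 and P7, 23915 at P10, 69427 at P15 and, last, 441312 FPKM at P21. The level at P21 was 34.9-fold that at P1 (log2 difference 5.13, 95% counting interval 4.86 to 5.39). The size of this difference depended on the scale, since P1 lay below P21 by a log2 difference of -4.50 after scaling to the miRNA total and of -4.07 by alignments per 1000000 miRNA alignments, which were 775 at P1 and 13058 at P21. As a share of the FPKM of all miRNAs, the 3 loci of miR-29b held 0.067% at P1, 0.098% at P10, 0.334% at P15 and 1.52% at P21. Levels under the names Mir29a and Mir29c are not part of these shares. In a bulk sample of the retina, more cells that express a miRNA and more of it per cell cannot be told apart.

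Mir29b1 was at 4886 FPKM on Day 1, 2672, 7044 and 5087 on Days 3, 5 and 7, 10189 on Day 10, 28916 on Day 15 and 175781 on Day 21. Mir29b2 was at 5746 FPKM on Day 1, 5239, 7016 and 5365 on Days 3, 5 and 7, 10673 on Day 10, 30344 on Day 15 and 205047 on Day 21. The locus rno-mir-29b-2 was at 2005 FPKM on Day 1, 1553, 1801 and 1356 on Days 3, 5 and 7, 3053 on Day 10, 10167 on Day 15 and 60484 on Day 21. At every locus the levels from P1 to P7 lay below that of P10, which lay below that of P15, and P21 stood above all of them. By alignments per 1000000 miRNA alignments this order did not hold for rno-mir-29b-2, which was at 286 at P1 and 282 at P10. The level at P21 was 36.0-fold that at P1 for Mir29b1, 35.7-fold for Mir29b2 and 30.2-fold for rno-mir-29b-2. Among the 571 miRNAs ordered by FPKM, Mir29b2 moved from place 211 at P1 to place 20 at P21, Mir29b1 from 227 to 25 and rno-mir-29b-2 from 335 to 48.

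**Figure D1:**
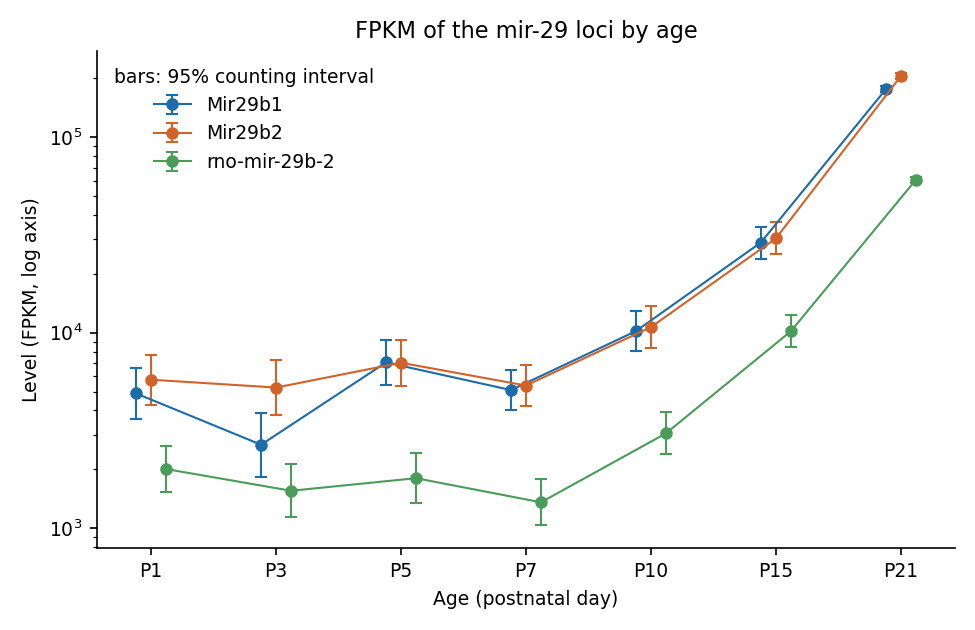
FPKM of Mir29b1, Mir29b2 and rno-mir-29b-2 (vertical log axis) at the 7 ages, 1 library per age, with bars for the 95% counting interval. The 3 loci stay between 1356 and 7044 FPKM until P7 and reach 60484 to 205047 FPKM at P21, and rno-mir-29b-2 lies below the other loci at every age.

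In the order of the summed levels, P3 was lowest, followed by P7, P1, P5, P10, P15 and P21. Among the first 4 of these ages, those next to each other in this order could not be told apart. P7 was above P3 by 0.32 on the log2 scale (95% counting interval -0.06 to 0.70), P1 above P7 by 0.10 (-0.25 to 0.44) and P5 above P1 by 0.33 (-0.03 to 0.69), so each of these intervals included 0. From P5 on in this order the intervals lay above 0, with a difference of 0.59 from P5 to P10 (0.26 to 0.92). In order of age, P3 was at -0.42 against P1 (-0.82 to -0.01) and P7 at -0.43 against P5 (-0.76 to -0.09). Both of these intervals lay below 0. By FPKM, Mir29b1 and Mir29b2 were lowest at P3 and rno-mir-29b-2 at P7. However, Mir29b2 was at 5239 FPKM at P3 (3807 to 7209) and 5365 at P7 (4195 to 6862). For rno-mir-29b-2 these levels were 1553 (1136 to 2124) and 1356 (1035 to 1776). The intervals of P3 and P7 overlapped at both loci, so a difference between the loci in the lowest age was not shown. Of all 571 miRNAs, 170 (29.8%) had their highest level at P21, 51 (8.93%) their lowest at P3 and 120 (21.0%) their lowest at P7.

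Between P3 and P5 the summed level was higher by 0.74 on the log2 scale (0.35 to 1.14). The difference was largest at Mir29b1, which went from 2672 to 7044 FPKM (2.64-fold). Mir29b2 was at 1.34-fold and rno-mir-29b-2 at 1.16-fold, both with intervals that included 0. By alignments, Mir29b1 held 24.8% of the 3 loci at P3 (95% Wilson interval 17.7% to 33.5%) and 36.5% at P5 (29.6% to 43.9%). Both of these intervals included the equal share of 33.33%, which does not compare the ages with each other. Whether the step differed between the loci was not tested. The value of Mir29b1 at P3 combined 2 unequal parts of that library (a deeper and a shallower component, explained with the components of all ages), since its shallower component held 1 alignment (365 FPKM) and its deeper one 27 (4979 FPKM). At P5 its deeper component was at 6256 FPKM and its shallower one at 7832. The difference from P3 to P5 was thus smaller between the deeper components than between the deposited values. It was larger between the shallower components. With 1 of 3 loci at least 2-fold higher, the share can be read beside 14.2% of all miRNAs in the same direction. Since a read of the mature form cannot tell the loci apart, counts of the 3 loci, here and below, are not separate results.

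From P7 to P10 the summed level was higher by 1.02 (0.71 to 1.33), a 2.03-fold difference, while the median of all miRNAs was 0.09. Mir29b1 was at 2.0-fold, Mir29b2 at 1.99-fold and rno-mir-29b-2 at 2.25-fold, so 2 of 3 loci were at least 2-fold higher, beside 25.9% of all miRNAs. Under each of the other scalings between libraries, 0 of 3 loci reached 2-fold at this step.

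At P15, around the age at which rat pups open their eyes, the summed level was 2.90-fold that at P10 (log2 difference 1.54, 1.26 to 1.81), and the median of all miRNAs was -0.27. The 3 loci were at 2.84-fold, 2.84-fold and 3.33-fold. All 3, which can share reads, were at least 2-fold higher, beside 12.1% of all miRNAs, and 38 of 571 miRNAs had a larger rise than the summed level.

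From P15 to P21, as the retina nears its adult form, the difference was largest at 6.36-fold (2.67, 2.50 to 2.84), beside a median of 0.37 over all miRNAs. Mir29b2 was at 6.76-fold, Mir29b1 at 6.08-fold and rno-mir-29b-2 at 5.95-fold. All 3 loci were again at least 2-fold higher, beside 32.4% of all miRNAs, and 42 of 571 miRNAs had a larger rise than the summed level. The 3 loci together were supported by an estimated 12852 alignments at P21, which would be between 4231 and 16884 if all of them came from the shallowest or from the deepest component of that library, and the components are described below.

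Over the whole period, 31.5% of all miRNAs were at least 2-fold higher at P21 than at P1, and all 3 loci were among them. Ordered by the size of the rise, Mir29b1 was at place 24, Mir29b2 at 25 and rno-mir-29b-2 at 28 of 571. Of the 23 miRNAs above Mir29b1, 17 were listed at 0 at P1, so their place depends on the pseudocount, and 6 had a level above 0 at both ages.

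**Figure D2:**
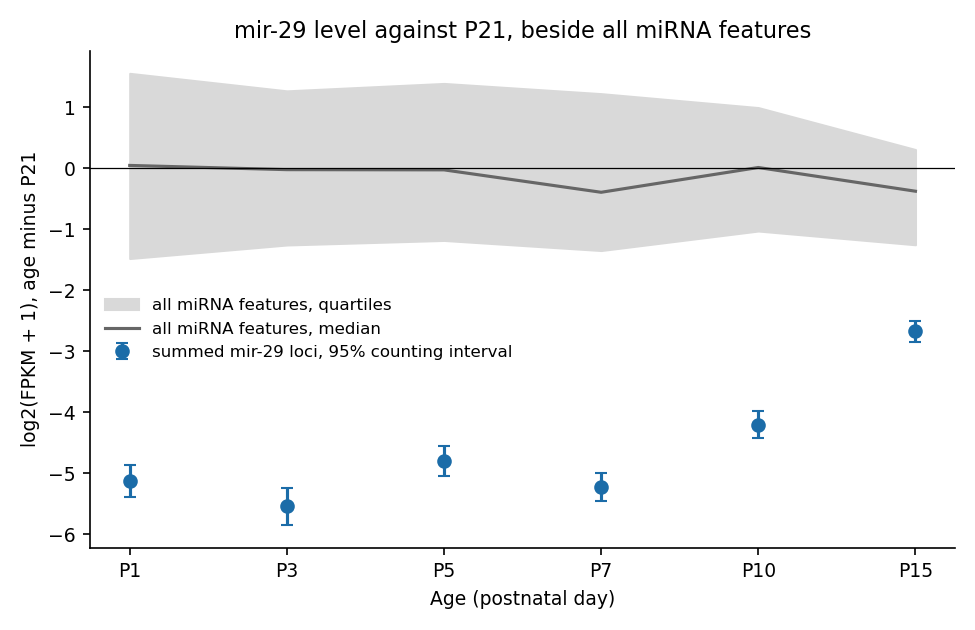
Difference of the summed mir-29 level from P21, on the log2(FPKM + 1) scale, at 6 ages, with 95% counting intervals, over the median (line) and the quartiles (band) of all 571 miRNA features. The mir-29 points run from -5.54 at P3 to -2.67 at P15, below the band at every age, while the median of all miRNAs stays between -0.39 and 0.05.

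Each pool was sequenced more than once, and 1 FPKM value per age was used here. From P3 to P15 the low values were sums of 2 different steps, as a mean of a deeper and a shallower component would give, whereas P1 had 1 step and P21 had 4. The components were not assigned to sequencing runs. For the 3 loci each value from P3 to P15 split in 1 way into whole alignments of the 2 components, which gives a second look at the level of an age, although not from other animals.

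Summed over the 3 loci, the deeper component of P10 corresponded to 27794 FPKM and the shallower to 20036. At P15 the components were at 44290 and 94564 FPKM. Both components of P15 were thus above both of P10, and those of P10 were above every component of P3, P5 and P7 and above the single value of P1. The step from P10 to P15 was thus present whichever components were compared, although the components of P15 differed from each other by 2.14-fold. The library of P21, with 4 steps, was not split, so the larger step from P15 to P21 had no such check.

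Before P10 the components disagreed about the order of the ages. At P3 they were at 13700 and 5228 FPKM, a 2.62-fold difference that rested on 95 and 18 alignments. At P7 they were at 5461 and 18155 FPKM, a 3.32-fold difference. The highest component before P10, the shallower of P7, was close to the lower one of P10. The components of P5 differed by 1.10-fold, at 15072 and 16650 FPKM.

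At P3 and P10 the parts of mir-29 were close to those of other miRNAs. The shallower component gave 27.6% of the summed mir-29 signal at P3 and 41.9% at P10, where the medians of the other miRNAs that could be split were 27.6% of the signal (171 miRNAs) and 42.3% (158 miRNAs). At P5, P7 and P15 the mir-29 shares of 52.5%, 76.9% and 68.1% were above the medians of 37.3%, 66.3% and 56.9%, and above the upper quartiles of 45.6%, 71.1% and 66.3%.

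**Figure D3:**
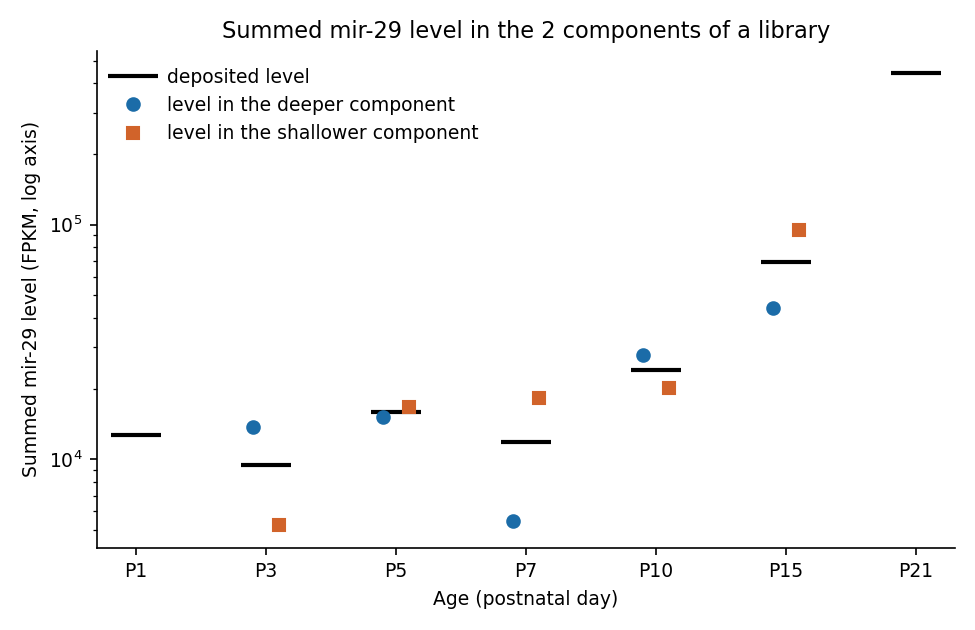
Summed mir-29 level (FPKM, vertical log axis) at each age, with the deposited value as a bar and the level in the deeper (circle) and shallower (square) component where a library splits into 2. Both components of P15 (44290 and 94564 FPKM) lie above both of P10 (27794 and 20036), whereas those of P3 and P7 differ by 2.62-fold and 3.32-fold.

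The 3 loci differed in FPKM, but hardly in alignments. By FPKM, Mir29b2 held 43.7% to 55.4% of the summed level over the ages, Mir29b1 28.2% to 44.4% and rno-mir-29b-2 only 11.4% to 16.4%. By alignments, the ranges were 32.5% to 37.2% for Mir29b2, 24.8% to 37.0% for Mir29b1 and 28.6% to 38.1% for rno-mir-29b-2. At P1 the loci had 42, 45 and 51 alignments in the order Mir29b1, Mir29b2 and rno-mir-29b-2, and at P15 they had 207, 211 and 191. Of the 21 shares by alignments, 19 had a 95% Wilson interval that included the equal share of 33.33%. Both exceptions were at P21, where Mir29b1 held 32.5% (31.66% to 33.28%) and Mir29b2 34.5% (33.7% to 35.3%) of the estimated alignments. Their intervals take the estimated 12852 alignments as counted. They would be wider at the lowest possible number of 4231, so both exceptions depend on that estimate.

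The difference between both measures lies in what 1 alignment was worth in FPKM, which was lower for a longer span of the feature. The span was 71 bases for Mir29b1, 68 for Mir29b2 and 121 for rno-mir-29b-2, beside annotated lengths of 81, 84 and 84 bases. At P1, 1 alignment was worth 116 FPKM at Mir29b1, 128 FPKM at Mir29b2 and 39.3 FPKM at rno-mir-29b-2. Relative to rno-mir-29b-2, this was 2.96-fold at Mir29b1 and 3.25-fold at Mir29b2. Both exceed the ratios of the spans, so the FPKM was not divided by the span alone. The lower FPKM of rno-mir-29b-2 followed from the lower worth of its alignments. From P1 to P15 the intervals of its share by alignments included the equal share at every age. Since both genes give the same mature sequence and the third locus bears the name of one of them, the levels of the 3 loci are uncertain one by one, and how the mapping placed reads that match more than 1 locus was not given in the sources used here.

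**Figure D4:**
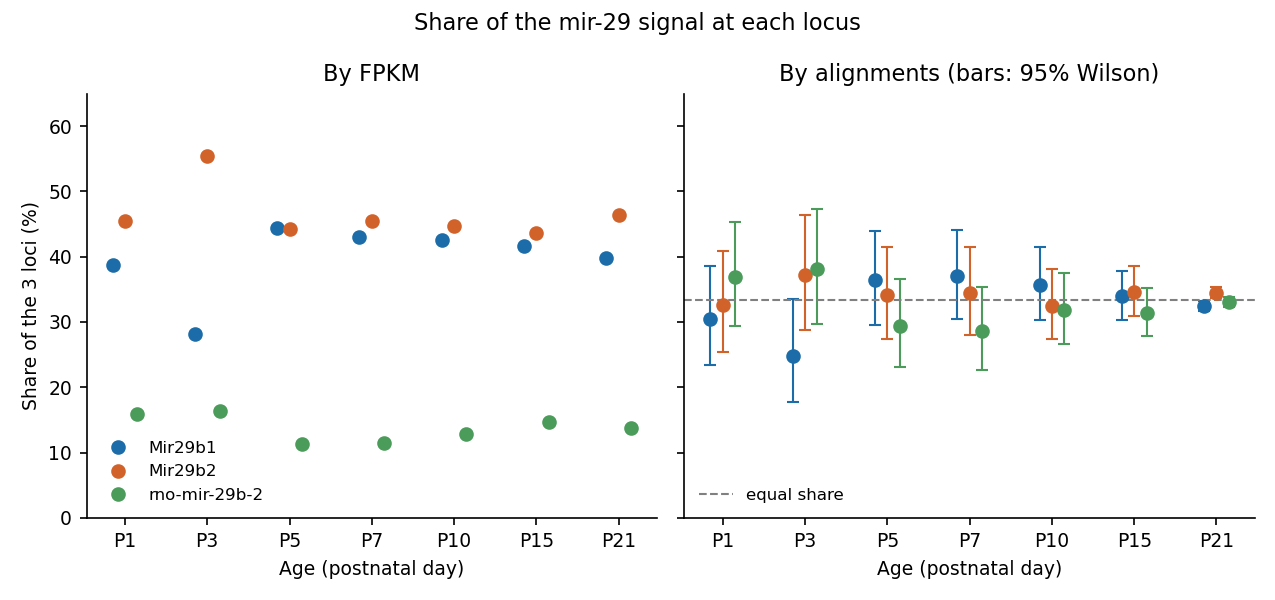
Share of the 3 mir-29 loci at each locus and age, by FPKM (left) and by alignments (right, with 95% Wilson intervals and a dashed line at the equal share of 33.3%). By FPKM rno-mir-29b-2 holds 11.4% to 16.4%, and by alignments the 3 loci lie close to the line, at 24.8% to 38.1%.

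Each of the 3 loci has a neighbour of the mir-3556 family, and these were named after their values had been seen. Mir3556a lies 273 bases from Mir29b1 on chromosome 4, Mir3556b lies 436 bases from Mir29b2 on chromosome 13 and rno-mir-3556b-1 also lies 436 bases from rno-mir-29b-2 on chromosome 1. All 3 are on the strand opposite to their mir-29 neighbour's. In RefSeq, Mir29a lies within Mir3556a and Mir29c within Mir3556b, on the opposite strand. The mature sequences, shown because they bear on which gene a read came from, read as follows.
rno-miR-3556a: cgauuucagauggugcua
rno-miR-3556b: accgauuucaaauggugcua
Over its full length of 18 bases, miR-3556a is the reverse complement of bases 1 to 18 of miR-29a-3p, and miR-3556b is that of bases 1 to 20 of miR-29c-3p. Whether the authors' mapping kept to 1 strand is not given in the sources used here, so reads of miR-29a and miR-3556a, and those of miR-29c and miR-3556b, cannot be told apart in these values.

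Mir3556a had a profile close to that of the mir-29 loci. Its level was 2378 FPKM on Day 1, 1594, 1390 and 1303 on Days 3, 5 and 7, 4165 on Day 10, 13599 on Day 15 and 81518 on Day 21, which is 34.3-fold that at P1. Mir3556b was at 2001 FPKM on Day 1, 2140, 2256 and 3440 on Days 3, 5 and 7, 9590 on Day 10, 13915 on Day 15 and 38923 on Day 21. The third, rno-mir-3556b-1, was at 2870 FPKM on Day 1, 3259, 4669 and 5901 on Days 3, 5 and 7, 14442 on Day 10, 22101 on Day 15 and 63134 on Day 21. Both loci of mir-3556b were higher at each age than at the one before and had 19.5-fold and 22.0-fold the level of P1 at P21. From P15 to P21 their log2 differences of 1.48 and 1.51 were smaller than that of Mir3556a (2.58) and those of the mir-29 loci (2.57 to 2.76). Mir3556a had more alignments than any mir-29 locus in every library, with 93 beside 42 for Mir29b1 at P1 and 78 beside 70 at P7.

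The profiles most like that of the summed mir-29 level were looked for among all miRNAs with a mean of at least 100 FPKM, as the root mean square difference of the centred log2 profiles over the 7 ages. The closest was Mir3556a (0.42), followed by Mir129-2 on chromosome 3 (0.64), rno-mir-3556b-1 (0.64) and 2 predicted miRNAs with clone names, AABR07014756.2 (0.73) and AABR07013586.1 (0.87). By the same measure the members themselves lay at 0.11 for Mir29b2, 0.20 for rno-mir-29b-2 and 0.21 for Mir29b1. Mir129-2 was at 2695 FPKM at P1 and 102536 at P21 (38.1-fold), with 4264 FPKM at P3, where the summed mir-29 level was lowest. Both clone-named features rested on few alignments, with a mean of 51.0 and 30.9 over the ages. The profiles share their libraries and thus their depth, so their likeness is a description.

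**Figure D5:**
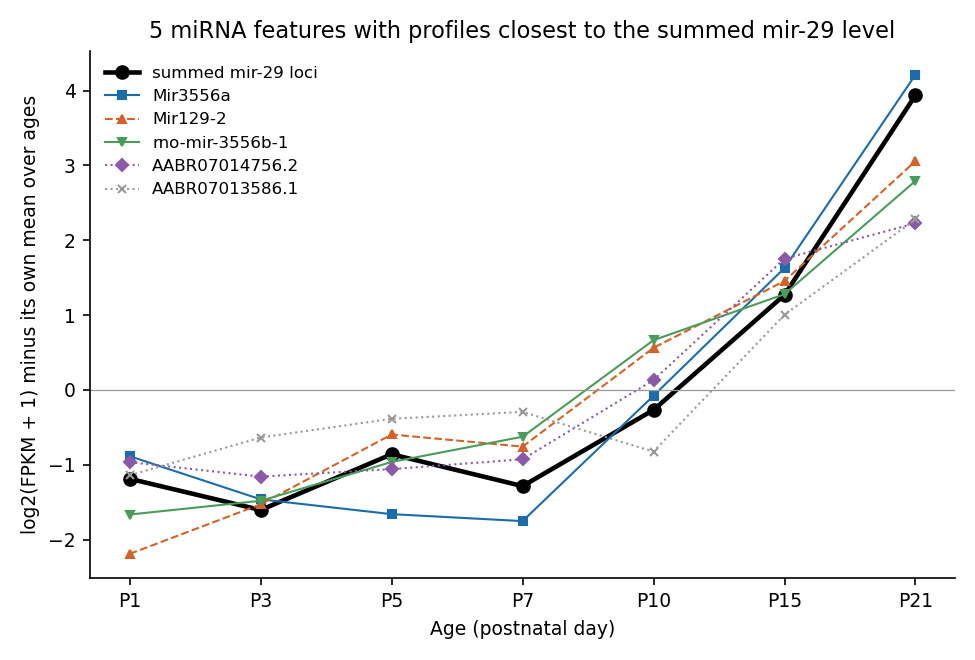
Profiles of the summed mir-29 level (black) and of the 5 miRNA features closest to it, as log2(FPKM + 1) minus the mean of each over the 7 ages, 1 library per age. Mir3556a, at a root mean square difference of 0.42, follows the black line most closely, and Mir129-2 and rno-mir-3556b-1 are at 0.64.

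The counts of the following lists are to be read beside the 31.5% of all miRNAs that were at least 2-fold higher at P21 than at P1 and the 32.9% that were at least 2-fold lower. Of 4 miRNAs known to act on DNA methyltransferases, 1 was at least 2-fold lower and 0 at least 2-fold higher. The lower one, Mir152, was at 6760 FPKM at P1 and 1558 at P21. Mir148a was at 0.51-fold, Mir143 at 1.34-fold and Mir148b at 1.62-fold, and the median log2 difference of the list was -0.27, beside -0.05 for all 571 miRNAs. Of 7 listed miRNAs linked to the extracellular matrix and fibrosis 5 were found, of which 1 was at least 2-fold higher and 1 at least 2-fold lower, with a median of 0.11. Mir21, which is abundant in fibrosis, was at 79025 FPKM at P1 and 85097 at P21 (1.08-fold), and Mir200b was at 0.41-fold on 8 alignments at P1. Mir192 was at 501 FPKM at P1, at 828 to 990 from P3 to P10, at 1771 at P15 and at 3074 at P21, which is 6.13-fold on 6 alignments at P1.

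Of 10 listed neuronal loci, all were found and 6 were at least 2-fold higher at P21 than at P1, beside 31.5% of all miRNAs, with a median log2 difference of 3.18. These 6 are loci of 3 miRNAs, namely Mir124-1, Mir124-2 and Mir124-3, Mir138-1 and Mir138-2, and Mir132, so related loci carry the count and the median. Mir7a-2 was at 1.23-fold, Mir128-1 at 1.27-fold, Mir128-2 at 1.54-fold and Mir7a-1 at 1.97-fold. Mir138-1, a miRNA of mature neurons and synapses, was at 8806 FPKM at P1, 32975 at P7, 27044 at P15 and 104031 at P21 (11.8-fold). Mir132, which responds to neuronal activity, was at 951 FPKM at P1, 2871 at P15 and 6761 at P21 (7.11-fold). Mir124-1, of the most abundant neuronal miRNA, was at 391668 FPKM at P1, 2090000 at P7 and 4500000 at P21 (11.5-fold). In the proliferation list of the mir-17-92 cluster, all 6 members were at least 2-fold lower at P21, beside 32.9% of all miRNAs, with a median of -2.65, and Mir20a was at 970552 FPKM at P1 and 57224 at P21.

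Markers of the retina and of other cell types were read beside these levels. Of 8 retinal markers 7 were found, and all 7 were at least 2-fold higher at P21 than at P1, beside 31.5% of all miRNAs. Of these, 3 are the loci of Mir124 already counted in the neuronal list. The others include Mir183 (4.35-fold) and Mir96 (6.25-fold) of the photoreceptors and Mir211 (112-fold), which is also a marker of the pigment epithelium. The endothelial marker found, Mir126a, was at 42554 FPKM at P1 and 33548 at P21, and of the mural and connective tissue markers 3 of 5 were found, with Mir145 at 3.17-fold, Mir143 at 1.34-fold and Mir199a2 at 1.28-fold at P21. The 3 blood markers found summed to 203 to 893 alignments per 1000000 miRNA alignments, with 345 at P21. The 3 muscle markers found summed to 1625 per 1000000 at P3 and 987 at P5, and to 50.7 to 163 at the other ages, with Mir206 at 130765 FPKM at P3 and 1652 at P21. The part of these cells in the mir-29 levels was not tested.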

How the data were processed

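One library value per age was analysed, each from a pool of 3 retinas. The authors trimmed Ion Torrent reads, mapped them to Ensembl noncoding RNAs (Rnor_6.0) with the Torrent Suite and ran Cufflinks, Cuffmerge and Cuffdiff (2.2.1.3 in the submitters' processing notes), and they deposited FPKM values for 21 pairs of ages, and each feature entered with a single value per age. The normalization between libraries is not given in the sources used here. The deposited fold changes, test statistics, p-values and q-values hold the authors' comparisons and were not used.

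Members were found by gene symbol. The members, lists and rules were chosen with earlier results of these data known. Named were all members, the 5 miRNAs with the most similar profile and the members of the fixed lists, and the mir-3556 loci were added after their values were seen. Levels were compared as log2(FPKM + 1), and all 571 miRNAs passed a mean of 10 FPKM. A miRNA was counted at a fold of at least 2. Alignments were recovered from the steps of low values, and the procedure was tested on simulated data. Of the low values, 99.9% to 100% were whole sums of steps to within 0.0002 of what 1 alignment was worth at P1. At P21 the 4 components were assumed to hold equal signal. The same was assumed from P3 to P15 for totals of miRNA alignments and for values that were not split. Sequences came from RefSeq (GRCr8). Python 3.11.15, numpy 2.4.6, pandas 2.3.3, scipy 1.17.1 and matplotlib 3.10.9 were used.

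The alternatives were 3 other scalings of the libraries, by the miRNA total, by median-of-ratios or by TMM (with 30% of ratios and 5% of levels trimmed at either end), pseudocounts of 0.1 and 10, minimum means, alignments per 1000000 miRNA alignments, other summaries of the loci and leaving out each age.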

Additional observations from a re-analysis of the deposited data

How the results depend on the processing

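The difference of the 3 loci together from P21 kept its direction at every age under every scaling, pseudocount, summary of the loci and measure tried. Scaling to the miRNA total gave log2 differences of -4.50, -4.68, -4.22, -4.57, -3.96 and -2.18 in the order P1 to P15. That scaling shifts all miRNAs against P21 by 0.24 (P10) to 0.87 (P3), and the other scalings by -0.14 to 0.35. Alignments per 1000000 miRNA alignments gave -4.07, -4.49, -4.33, -4.58, -3.88 and -2.84 in that order. Median-of-ratios scaling gave -4.97 at P7 and -2.43 at P15, and TMM gave -4.88 and -2.32. The lowest age was Day 7 in place of Day 3 by alignments per 1000000, a measure added after the data were seen. The miRNA totals of that measure assumed equal signal in both components of a library. Among other miRNAs that could be split, the shallower component gave a median of 27.6% of the signal at P3 and 66.3% at P7. Which of Day 3 and Day 7 was lowest by this measure was therefore not settled. Leaving out P3 made Day 7 the lowest age in place of Day 3, and leaving out P21 made Day 15 the highest in place of Day 21. Leaving out any other age cannot change either, so nothing about their stability follows from it. The count of miRNAs at least 2-fold higher at P10 than at P7 was 92 under the miRNA total and 86 under TMM in place of 148, that at P15 against P10 was 116 under TMM in place of 69, and that at P21 against P15 was 119 under the miRNA total in place of 185. The cause of these shifts was not tested. Splitting libraries into components was also chosen after the data were seen. No paired analysis was possible because there is 1 library per age. At P1, P3, P5 and P7 a locus had 28 to 70 alignments, and the components of P3 and P7 differed by 2.62-fold and 3.32-fold, so the order of these ages was not settled.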
